A study of Mus musculus with 4 samples.

Results

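Ccn1, Ccn2 and Ankrd1, the target genes most often used to read the activity of the coactivator YAP, were followed across the cell classes of orthotopic KPC tumors together with Amotl2, Axl, Yap1, Wwtr1 and Tead1. These 8 genes, of the 32285 listed in the files, were chosen by symbol with their levels in these libraries already known, so the levels and ratios are a description and carry no test. In the Hippo pathway a kinase cascade phosphorylates YAP, encoded by Yap1, and its paralog TAZ, encoded by Wwtr1, and keeps them in the cytoplasm. When the cascade is low, as in cells that are spread, stretched or on a stiff matrix, YAP and TAZ enter the nucleus, bind TEAD factors and raise their targets. In pancreatic ductal tumors the pathway is known for its part in the tumor cells and in the matrix-making fibroblasts around them.

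There were 4 scRNA-seq libraries, 1 per condition, from tumors of obese C57BL/6 mice grafted in the pancreas with KPC cells, a mouse pancreatic tumor line. In Pdgfrb-TK mice, thymidine kinase was driven by the Pdgfrb promoter, so ganciclovir (GCV) kills dividing cells that use this promoter, CAFs and pericytes among them. These mice were given GCV at 50 mg/kg (Pdgfrb-TK/GCV) or PBS (Pdgfrb-TK/PBS), and treatment in all groups ran for 25 days. Wild-type mice were given D-CAN at 30 mg/kg, a cytotoxic peptide that homes to adipose stromal cells (D-CAN), or PBS (WT/PBS). All mice had been on a high-fat diet, the labels give an age of 7 months in all 4 groups where the study's methods describe older mice, and the tumor cells of all groups came from the FC1242 line. The suspensions of a treatment group were combined into its library. No difference between libraries therefore has a replicate check, and no test was made over cells. The 2 PBS libraries differ in the host's transgene and come from separate experiments. PBS was injected intraperitoneally in the Pdgfrb-TK mice and subcutaneously in the wild-type mice. The files of D-CAN and WT/PBS also list 5 further features that those of the Pdgfrb-TK libraries lack. Transgene, experiment, route and processing cannot be told apart in a comparison across the models. Both PBS libraries are given as controls. The thymidine kinase transcript was not analysed here.

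The deposited counts held between 84020317 and 155408336 unique molecular identifiers (UMIs) per library, and 44554 of 45218 cells had at least 200 genes, at a median of 4514.5 to 7421 UMIs per cell. A pair of libraries shared between 26 and 42 cell barcodes. A cell was gated to the class of which it held the most of 8 markers, with at least 3 of them and at least 1 more than of any other class. This gave 7082 KPC tumor cells with GCV, 7176 in Pdgfrb-TK/PBS, 3652 with D-CAN and 5766 in WT/PBS, and 267, 471, 1213 and 1963 CAF-marker cells in the same order. Pericytes numbered 3, 28, 33 and 87 in that order. Between 15.9% and 21.3% of the KPC tumor cells and between 13.6% and 25.5% of the CAF-marker cells lay at the edge of the gate, with 3 markers of their class or a lead of 1 marker. KPC tumor cells held a median of 5 of their own markers in each library and CAF-marker cells a median of 6 or 7. The median depth of KPC tumor cells lay between 8120.5 and 19951.5 UMIs and that of CAF-marker cells between 4803 and 10858 UMIs.

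Promoter sequence is shown for the genes that were past 2-fold in KPC tumor cells with GCV and were in the RefSeq promoter table. It held 6 of the 8 members (GRCm38.p6), without Ccn2 and Tead1. Start sites are those of that table. They can differ from the gene coordinates given below, and the windows of Amotl2 and Ankrd1 lie within those genes. The capitals mark the TEAD core motif CATTCC or its reverse complement GGAATG, in the 250 bases before the start site, 5′ to 3′ on the strand of the gene. Ccn1 is on chr3:145649986-145650235 (minus strand), Ankrd1 on chr19:36119845-36120094 (minus strand), Amotl2 on chr9:102717554-102717803 (plus strand) and Axl on chr7:25788734-25788983 (minus strand).
Ccn1: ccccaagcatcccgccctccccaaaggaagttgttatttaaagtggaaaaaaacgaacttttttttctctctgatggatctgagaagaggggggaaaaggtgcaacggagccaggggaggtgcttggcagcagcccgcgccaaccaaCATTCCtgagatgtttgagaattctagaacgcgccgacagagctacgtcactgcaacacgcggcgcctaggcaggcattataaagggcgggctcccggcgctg
Ankrd1: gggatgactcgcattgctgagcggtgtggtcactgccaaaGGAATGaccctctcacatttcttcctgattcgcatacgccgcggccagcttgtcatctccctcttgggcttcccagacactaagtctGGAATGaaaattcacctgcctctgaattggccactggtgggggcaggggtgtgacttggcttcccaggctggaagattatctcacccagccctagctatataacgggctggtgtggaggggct
Amotl2: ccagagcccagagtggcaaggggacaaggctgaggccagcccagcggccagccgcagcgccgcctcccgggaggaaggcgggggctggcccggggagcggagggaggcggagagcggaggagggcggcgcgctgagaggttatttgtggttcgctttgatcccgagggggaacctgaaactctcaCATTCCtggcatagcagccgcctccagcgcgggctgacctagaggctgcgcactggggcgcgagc
Axl: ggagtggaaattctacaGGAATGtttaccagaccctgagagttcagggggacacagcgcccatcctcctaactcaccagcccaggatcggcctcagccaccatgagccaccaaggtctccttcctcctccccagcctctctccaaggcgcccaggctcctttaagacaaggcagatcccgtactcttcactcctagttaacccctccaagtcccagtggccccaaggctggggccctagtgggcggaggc
Ankrd1 held the motif at 2 places, which start 210 and 123 bases before the start site, and Ccn1, Amotl2 and Axl at 1 place each. Searched on both strands over windows of 300 bases, each running from 250 bases before to 50 after the start site, the motif was present in all 6 members of the table, Yap1 and Wwtr1 included. It was present in 14.7% of all 32851 windows of the table, and 1.33% held it at 2 places or more. A match describes these letters and does not show binding.

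KPC tumor cells were the largest class. In these cells, against its own PBS library, Pdgfrb-TK/GCV had more of all 5 target genes, each by more than 2-fold, and Ccn1 and Ankrd1 by the most. D-CAN had less Ccn1, by more than 2-fold. The 2 PBS libraries also differed, however, by as much as 8.84-fold for Ccn1. Of the 8 genes in KPC tumor cells, only Ankrd1 with GCV was past 2-fold against both. All levels are CPM, the UMIs of a gene per 1000000 UMIs, both summed over the cells of a class, with exact 95% Poisson intervals, and intervals of folds are exact conditional binomial. Both cover counting error only. Where 4 values follow each other without names, they give first the GCV library and its control, then D-CAN and its control. All 8 genes are protein-coding, with coordinates on GRCm38/mm10 from GENCODE M21.

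Ccn1 encodes a secreted matricellular protein that binds integrins (ENSMUSG00000028195, chr3:145646976-145649981). In KPC tumor cells it lay at 128 CPM (125 to 130) with GCV, 18.8 (17.8 to 19.8) in Pdgfrb-TK/PBS, 51.9 (50.5 to 53.4) with D-CAN and 166 (164 to 168) in WT/PBS. The 2 PBS libraries thus held both the lowest and the highest level, and both treated libraries lay between them. Ccn1 was 6.79-fold higher (6.43 to 7.18) in Pdgfrb-TK/GCV than in Pdgfrb-TK/PBS, a log2 ratio of 2.70, but 1.30-fold lower than in WT/PBS. In D-CAN it was 3.20-fold lower (3.1 to 3.3) than in WT/PBS, a log2 ratio of -1.66, but 2.76-fold higher than in Pdgfrb-TK/PBS.

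Ccn2, also known as connective tissue growth factor, is a matricellular protein linked to fibrosis (ENSMUSG00000019997, chr10:24595442-24598683). Its levels in KPC tumor cells were 183 CPM (181 to 186) with GCV, 84.8 (82.7 to 86.9) in Pdgfrb-TK/PBS, 97.8 (95.8 to 99.8) with D-CAN and 179 (177 to 182) in WT/PBS. The GCV library was thus 2.16-fold higher (2.10 to 2.23) than its own control and 1.02-fold that of the other. The D-CAN library was 1.83-fold lower (1.79 to 1.88) than WT/PBS and 1.15-fold higher than Pdgfrb-TK/PBS.

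Ankrd1, an ankyrin repeat protein of the nucleus and the sarcomere that responds to stretch, differed from the CCN genes (ENSMUSG00000024803, chr19:36111961-36120099). It lay at 203 CPM (200 to 205) with GCV, 50.9 (49.3 to 52.5) in Pdgfrb-TK/PBS, 68.7 (67.0 to 70.4) with D-CAN and 82.9 (81.2 to 84.6) in WT/PBS. Here the GCV library stood above the other 3, which lay within a narrower range. The GCV level was 3.98-fold higher (3.85 to 4.13) than in Pdgfrb-TK/PBS and 2.44-fold higher (2.39 to 2.51) than in WT/PBS. Over all KPC tumor cells, D-CAN lay 1.21-fold below WT/PBS and 1.35-fold above Pdgfrb-TK/PBS. Within clusters the direction with D-CAN was mixed, as given below.

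Amotl2, an angiomotin family scaffold that binds YAP at cell junctions and holds it back (chr9:102716672-102733418), lay at 23.9, 10.1, 14.4 and 24.9 CPM, respectively, with GCV, in its control, with D-CAN and in WT/PBS. It was 2.38-fold higher (2.19 to 2.58) with GCV than in the control of its own model, and its level with GCV lay within counting error of that in WT/PBS, a fold of 0.960 (0.909 to 1.01). Axl, a receptor tyrosine kinase (chr7:25757273-25788705), lay at 124, 55.9, 101 and 81.0 CPM in the same order. It was 2.21-fold higher (2.14 to 2.29) with GCV than in Pdgfrb-TK/PBS and 1.53-fold higher (1.49 to 1.57) than in WT/PBS.

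The coactivators and Tead1 stayed within 2-fold of the own controls. Yap1 (chr9:7931999-8004596) lay at 59.3, 45.5, 68.7 and 58.1 CPM, a fold of 1.30 with GCV and 1.18 with D-CAN against their own controls. Wwtr1 (chr3:57455649-57575910) lay at 172, 107, 166 and 221 CPM, so its GCV level was 1.60-fold that of Pdgfrb-TK/PBS and below that of WT/PBS. Tead1 (chr7:112679318-112906807), a DNA-binding partner of both coactivators, lay at 182, 134, 190 and 122 CPM. Over all KPC tumor cells, both treated libraries were above both controls for Tead1, by 1.36 to 1.57-fold. Within clusters the direction was mixed for Yap1 and Tead1, as given below.

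**Figure D1:**
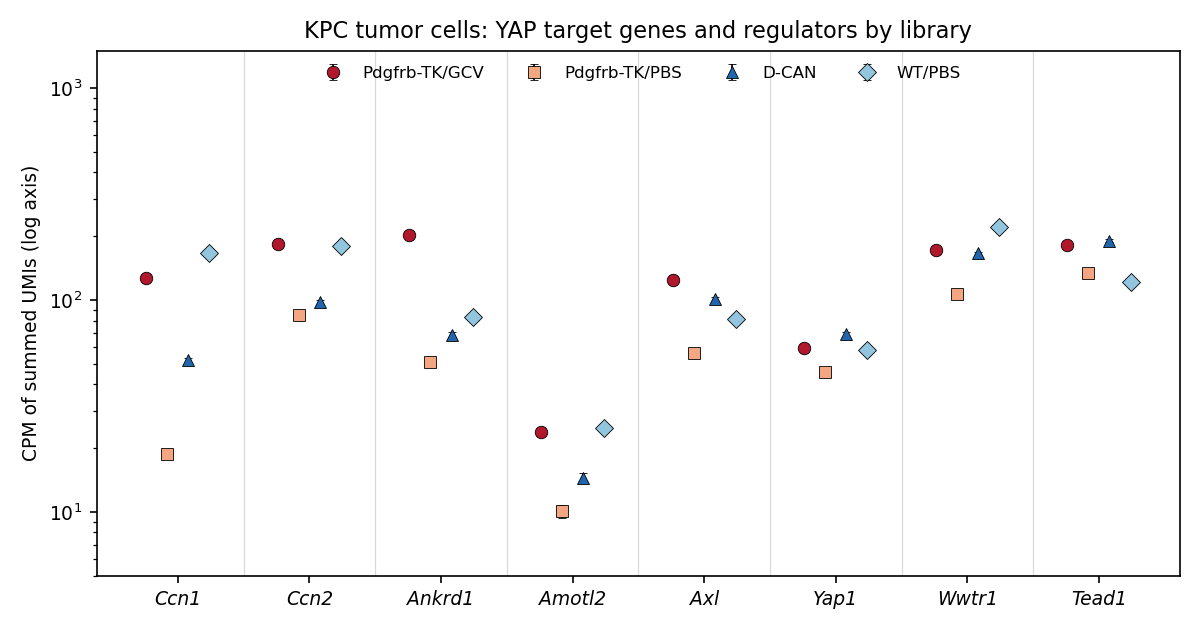
Level of the 8 genes in KPC tumor cells (CPM of summed UMIs, log axis) in each of the 4 libraries, with exact 95% Poisson intervals that are mostly smaller than the symbols. Ccn1 spans 18.8 to 166 CPM between the 2 PBS libraries, while Ankrd1 is highest in Pdgfrb-TK/GCV, at 203 CPM.

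In counts, 5 of the 8 genes were past 2-fold higher with GCV against its own control, where 4.79% of 14140 genes were (1.78% were past 2-fold lower), and the median log2 ratio was 1.12 over the members and 0.11 over all genes. Against WT/PBS only Ankrd1 was past 2-fold higher, where 6.35% of all genes were, and 1.71% of all genes were past 2-fold higher against both controls. With D-CAN, Ccn1 alone was past 2-fold lower than in WT/PBS, where 2.68% of all genes were (8.85% were higher), and it was past 2-fold higher than in Pdgfrb-TK/PBS, where 3.02% were. No member was past 2-fold against both controls with D-CAN, where 1.91% of all genes were, in either direction. Between the controls, Ccn1, Ccn2, Amotl2 and Wwtr1 were past 2-fold lower in Pdgfrb-TK/PBS than in WT/PBS, where 4.48% of all genes were. Since the members were chosen with these contrasts known, nothing is read from the counts.

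**Figure D2:**
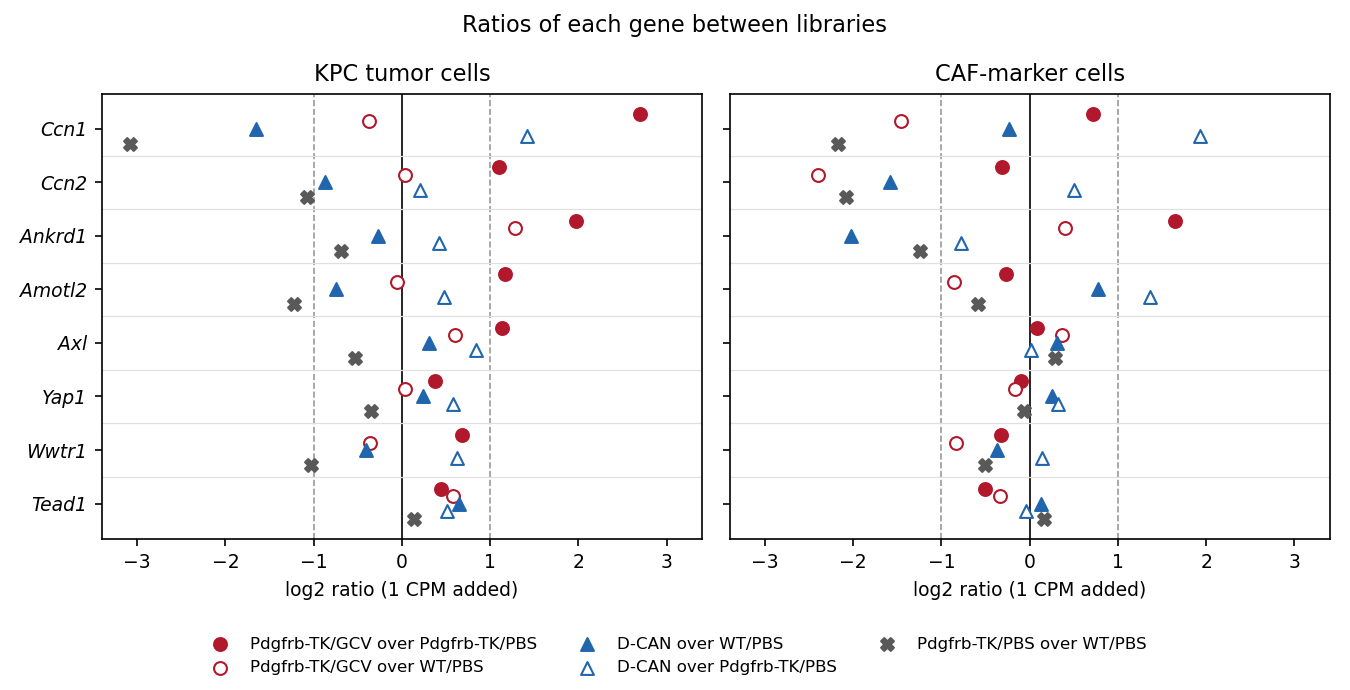
Log2 ratios (1 CPM added to each side) of the 8 genes between libraries, in KPC tumor cells and in CAF-marker cells. Filled symbols use the PBS library of the same model, open symbols the other PBS library, crosses compare the PBS libraries with each other, and dashed lines mark 2-fold. For Ccn1 in KPC tumor cells the filled symbols lie at 2.70 and -1.66 and the cross at -3.08.

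The libraries drew their KPC tumor cells from different clusters, so the ratios were also taken within clusters of the same cells, which were made without the 8 genes. Cluster 1, led by Piezo2 and Kcnq5, held 27.1% of the KPC tumor cells with GCV, 9.78% in Pdgfrb-TK/PBS, 23.0% with D-CAN and 8.45% in WT/PBS. A further cluster, 2, led by Lgals4 and Tff1, held 9.73%, 26.2%, 9.86% and 16.2%. Cluster 3, whose 10 leading genes include Phgdh and Ankrd1 itself, held 19.6%, 8.95%, 5.86% and 19.3%, and cluster 5 held 7.05%, 14.4%, 24.2% and 1.01%. Cluster 8, with the stress genes Atf3 and Ier3 among its 10 leading genes, held 8.73%, 2.76%, 6.24% and 16.9%. Cluster 10 held 8.98% with GCV and at most 0.767% elsewhere, and cluster 12 held 9.28% in WT/PBS and at most 0.575% elsewhere. Neither enters the ratios within clusters. Their median depths over all cells were 733 and 1021 UMIs. Cluster 0, which does enter, was led by hemoglobin and mitochondrial genes, at a median of 1440 UMIs. Of its 4107 cells, 1327 were gated to KPC tumor cells.

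Ankrd1 was more than 2-fold higher with GCV than in Pdgfrb-TK/PBS in 9 of 9 clusters with at least 50 such cells in both libraries, with log2 ratios from 1.02 to 1.61 and a median of 1.20. In cluster 3, for example, it lay at 276 CPM against 127, and in cluster 1 at 243 CPM against 114. In cluster 0 it rested on 26 UMIs against 40, and in cluster 16 on 31 against 45. Against WT/PBS it was higher in 8 of 8 clusters and past 2-fold in 6. All of these within-cluster ratios against Pdgfrb-TK/PBS lay below the pooled log2 ratio of 1.97. Ankrd1 with D-CAN was higher than in WT/PBS in 5 of 8 clusters and lower in 3, with a median log2 ratio of 0.11. The 1 past 2-fold was cluster 19, at 98.6 against 25.8 CPM. Against Pdgfrb-TK/PBS, Ankrd1 with D-CAN was higher in 4 of 9 clusters and lower in 5, with a median of -0.0027.

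Ccn1 with GCV was higher than in Pdgfrb-TK/PBS in 9 of 9 clusters, past 2-fold in 7, with a median log2 ratio of 1.78. In cluster 0 it rested on 6 UMIs against 12, and in cluster 16 on 18 against 12. With D-CAN it was lower than in WT/PBS in 8 of 8 clusters, past 2-fold in 5, with a median of -1.26. Between the PBS libraries it was lower in Pdgfrb-TK/PBS in 8 of 8 clusters, past 2-fold in 7. In cluster 1 Ccn1 lay at 213 CPM with GCV, 61.0 in Pdgfrb-TK/PBS, 73.2 with D-CAN and 315 in WT/PBS, the same order as over all KPC tumor cells.

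For Ccn2, Amotl2 and Axl the median log2 ratio with GCV within clusters, 0.56, 0.72 and 0.09, was below that over all KPC tumor cells, 1.10, 1.17 and 1.13. Ccn2 was higher with GCV in 9 of 9 clusters but past 2-fold in 1, and so was Amotl2. For Amotl2 that 1 was cluster 0, with 4 UMIs with GCV against 5 in Pdgfrb-TK/PBS. Axl was higher in 6 and lower in 3, never past 2-fold. Wwtr1 was lower with GCV in 7 of 9 clusters, though higher over all of these cells. With D-CAN against WT/PBS, Ccn2, Amotl2 and Wwtr1 were each lower in 8 of 8 clusters, and Axl was higher in 8 of 8. Against Pdgfrb-TK/PBS, Ccn2 with D-CAN was lower in 7 of 9 clusters and higher in 2, though higher over all of these cells. Yap1 was higher with GCV than in Pdgfrb-TK/PBS in 4 clusters and lower in 5. With D-CAN it was lower than in WT/PBS in 7 of 8. Tead1 was higher with GCV than in Pdgfrb-TK/PBS in 3 clusters and lower in 6, with a median log2 ratio of -0.03. Against WT/PBS, Tead1 was higher in 6 of 8 clusters with GCV and in 5 of 8 with D-CAN. With D-CAN against Pdgfrb-TK/PBS it was higher in 5 of 9.

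**Figure D3:**
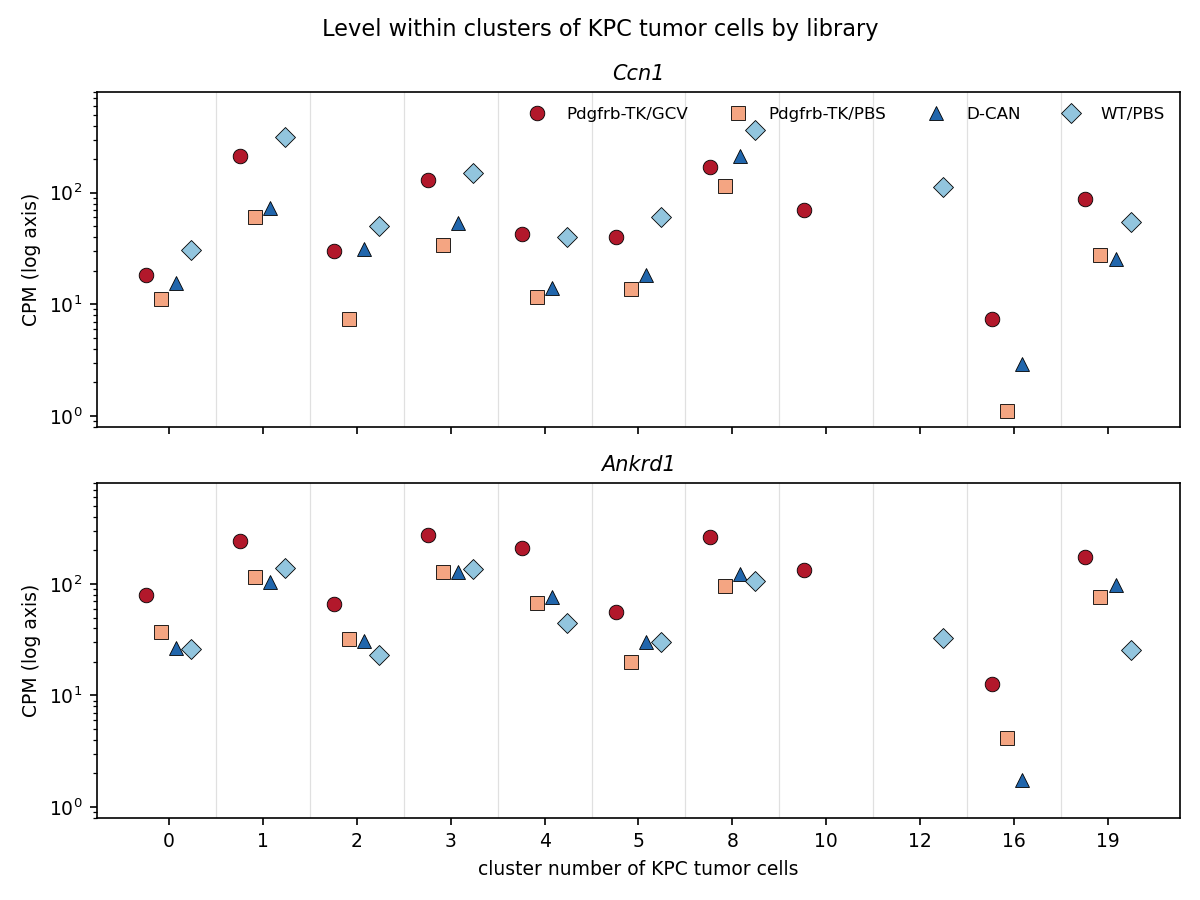
Ccn1 and Ankrd1 (CPM, log axis) within each cluster of KPC tumor cells, by library, for clusters with at least 50 gated cells in that library. Ankrd1 is highest in Pdgfrb-TK/GCV in each of the 8 clusters that all 4 libraries share, while Ccn1 in Pdgfrb-TK/GCV and WT/PBS lies above both other libraries in 6 of these 8 clusters.

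The shares of cells with a UMI followed the levels once each cell was thinned to 2000 UMIs and shallower cells were left out, 854 with GCV, 785 in Pdgfrb-TK/PBS, 236 with D-CAN and 591 in WT/PBS. Ankrd1 was seen in 19.6% of thinned KPC tumor cells in Pdgfrb-TK/GCV (44.4% unthinned), 7.09% in Pdgfrb-TK/PBS (19.7%), 8.46% with D-CAN (31.5%) and 9.43% in WT/PBS (32.4%). For Ccn1 the shares were 18.9% (44.8%), 3.16% (9.80%), 7.46% (26.8%) and 19.1% (44.6%). In neutrophils, which should lack Ankrd1, the thinned share was 8.05% with GCV, 0 of 31 cells in Pdgfrb-TK/PBS, which allows up to 9.68% at 3 cells and up to 11.2% by the exact 95% interval, 0.303% with D-CAN and 1.55% in WT/PBS, and in B cells of Pdgfrb-TK/GCV it was 9.43%. The median depth was 12000 UMIs in KPC tumor cells of Pdgfrb-TK/GCV and 1746.5 in its neutrophils. Ankrd1 UMIs were thus seen in a class that should lack the gene, in a larger share of its cells in the GCV library than in D-CAN or WT/PBS. The part of free RNA in the levels of any class was not tested. The tenth of KPC tumor cells with the most Ankrd1 held between 71.0% and 81.8% of its UMIs in the 4 libraries.

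The summed level of 12 immediate early and heat shock genes, which tissue dissociation can induce, had the same order of libraries as Ccn1. It was 2342 CPM in KPC tumor cells with GCV, 1477 in Pdgfrb-TK/PBS, 2153 with D-CAN and 3068 in WT/PBS. Of these genes Atf3, Ier3, Dusp1 and Nr4a1 each had that order, and the others did not. Fos, Fosb and Ier2 were lowest in WT/PBS. With GCV, 5 of the 12 were past 2-fold higher than in the own control (Jun, Egr1, Hspa1a, Hspa1b and Dusp1), where 4.79% of all genes were. With D-CAN 3 were past 2-fold lower (Ier3, Hspa1a and Hspa1b), where 2.68% of all genes were. The part of these 12 genes in the Ccn1 ratios was not tested. The 8 macrophage markers summed to 110 CPM in KPC tumor cells of Pdgfrb-TK/GCV and to between 22.7 and 33.0 in the other libraries, and the 8 CAF markers to between 38.8 and 127 CPM, with none of either list at 0.

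In CAF-marker cells the pattern differed by gene. Ankrd1 was higher with GCV and lower with D-CAN than in the own controls, Ccn2 was lower with D-CAN, and Amotl2 was higher with D-CAN. These cells came mainly from 3 clusters. Cluster 11, led by matrix genes such as Postn and Col8a1, held 31.5% with GCV, 43.3% in Pdgfrb-TK/PBS, 24.5% with D-CAN and 71.1% in WT/PBS. By contrast, cluster 13 held 62.9%, 47.1%, 19.3% and 17.5%; its 10 leading genes include the pericyte marker Rgs5 and no CAF marker. Cluster 20, with C3, Igf1, Dpt and Clec3b among its 10 leading genes but none of the gate's markers, held 42.9% with D-CAN and at most 7.01% elsewhere. Values over all CAF-marker cells are therefore given together with those of clusters 11 and 13, and of cluster 20 with D-CAN where it stood apart.

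Ankrd1 in CAF-marker cells lay at 54.6 CPM (46.9 to 63.2, 179 UMIs) with GCV, 16.8 (12.4 to 22.2, 48 UMIs) in Pdgfrb-TK/PBS, 9.35 (7.75 to 11.2, 119 UMIs) with D-CAN and 41.1 (38.6 to 43.8, 968 UMIs) in WT/PBS. It was 3.26-fold higher (2.36 to 4.58) with GCV and 4.40-fold lower (3.63 to 5.37) with D-CAN, against the own controls. Against the other controls the folds were 1.33 higher with GCV and 1.79 lower with D-CAN. In cluster 11 the 4 levels were 56.9, 6.50, 8.59 and 33.4 CPM and in cluster 13 they were 55.2, 20.2, 32.0 and 55.9, so the level with GCV was close to that of WT/PBS in cluster 13. In cluster 20 of D-CAN it was 1.47 CPM, from 9 UMIs. The thinned share of CAF-marker cells with an Ankrd1 UMI was 6.07% with GCV (3.44 to 9.82, exact binomial; 15.4% unthinned), at a median depth of 10858 UMIs. In the same library it was 8.05% (3.30 to 15.9) in neutrophils, 9.43% (4.62 to 16.7) in B cells, 4.94% (1.36 to 12.2) in T cells and 3.22% (2.42 to 4.19) in macrophages and monocytes, at median depths of 1746.5, 1899, 2400 and 6066 UMIs. The interval of the CAF-marker cells overlapped each of these, which come from classes that should lack Ankrd1. Overlap is no test of a difference, and none was made. The Ankrd1 level of 54.6 CPM in the CAF-marker cells was above the levels in those classes, which lay between 21.6 and 40.5 CPM. The share was 1.48% in Pdgfrb-TK/PBS (3.82% unthinned), 0.505% with D-CAN (2.80%) and 4.61% in WT/PBS (11.7%), where 0 of 31, 0.303% and 1.55% of thinned neutrophils had a UMI. Few cells carried these UMIs: in D-CAN 34 of 1213 CAF-marker cells had any, and the tenth of cells with the most held 92.2% of them in Pdgfrb-TK/GCV.

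KPC markers were present in the CAF-marker cells, where the 8 summed to 1000 CPM with GCV, 2025 in Pdgfrb-TK/PBS, 723 with D-CAN and 1633 in WT/PBS, a median of 3, 2, 1 and 2 markers per cell. Pericyte markers summed to 364, 207, 226 and 147 CPM and macrophage markers to 292, 65.0, 88 and 109 CPM in the same order. The pericyte marker Higd1b and the macrophage marker Adgre1 were at 0 in Pdgfrb-TK/GCV. The part of these cells in the Ankrd1 level was not tested.

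Ccn2 in CAF-marker cells lay at 153 CPM (140 to 167) with GCV, 190.3 (175 to 207) in Pdgfrb-TK/PBS, 270.1 (261 to 279) with D-CAN and 811 (800 to 823) in WT/PBS. WT/PBS stood far above the other 3 libraries. With D-CAN it was 3.0-fold lower (2.90 to 3.12) than in WT/PBS and 1.42-fold higher than in Pdgfrb-TK/PBS, and with GCV 1.24-fold lower than in its own control. In cluster 11 it was 243, 339, 529 and 924 CPM and in cluster 13 it was 99.4, 69.2, 112 and 448 CPM, so the D-CAN difference was smaller in cluster 11 and larger in cluster 13. In cluster 20 with D-CAN it was 143 CPM. This cluster held 42.9% of the CAF-marker cells with D-CAN and 0.357% of those in WT/PBS. Its part in the fold over all CAF-marker cells was not tested.

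Ccn1 in CAF-marker cells lay at 190 CPM (175 to 205) with GCV, 115 (103 to 128) in Pdgfrb-TK/PBS, 443 (432 to 455) with D-CAN and 523 (513 to 532) in WT/PBS. Both libraries from wild-type mice were above both libraries from Pdgfrb-TK mice. Ccn1 was 1.65-fold higher (1.44 to 1.89) with GCV and 1.18-fold lower (1.14 to 1.22) with D-CAN than in the own controls. In cluster 11 it lay at 275, 198, 534 and 577 CPM and in cluster 13 at 140, 52.6, 299 and 341 CPM, in the same order of libraries. In both clusters Ccn1 with D-CAN was within 2-fold of WT/PBS.

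Amotl2 in CAF-marker cells lay at 32.3, 39.1, 102 and 59.3 CPM, with D-CAN 1.73-fold higher (1.60 to 1.86) than WT/PBS and 2.62-fold higher than Pdgfrb-TK/PBS. In cluster 11 it lay at 40.4, 30.9, 84.5 and 64.8 CPM and in cluster 13 at 19.6, 26.7, 51.1 and 36.9 CPM, so the D-CAN level was nearer to WT/PBS within each than over all CAF-marker cells. In cluster 20 with D-CAN it was 137 CPM. Axl lay between 106 and 137 CPM and Yap1 between 50.9 and 68.1 CPM over the 4 libraries. Within clusters 11 and 13, Axl ranged from 85 to 164 CPM and Yap1 from 46.1 to 80.2 CPM. Wwtr1 lay at 135, 169, 187 and 241 CPM, and Tead1 at 221, 314, 305 and 279 CPM, 1.42-fold lower (1.29 to 1.57) with GCV than in its own control. Wwtr1 with GCV against its own control was 156 against 211 CPM in cluster 11 and 123 against 144 in cluster 13. Tead1 was 324 against 415 CPM and 156 against 232 in these clusters.

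**Figure D4:**
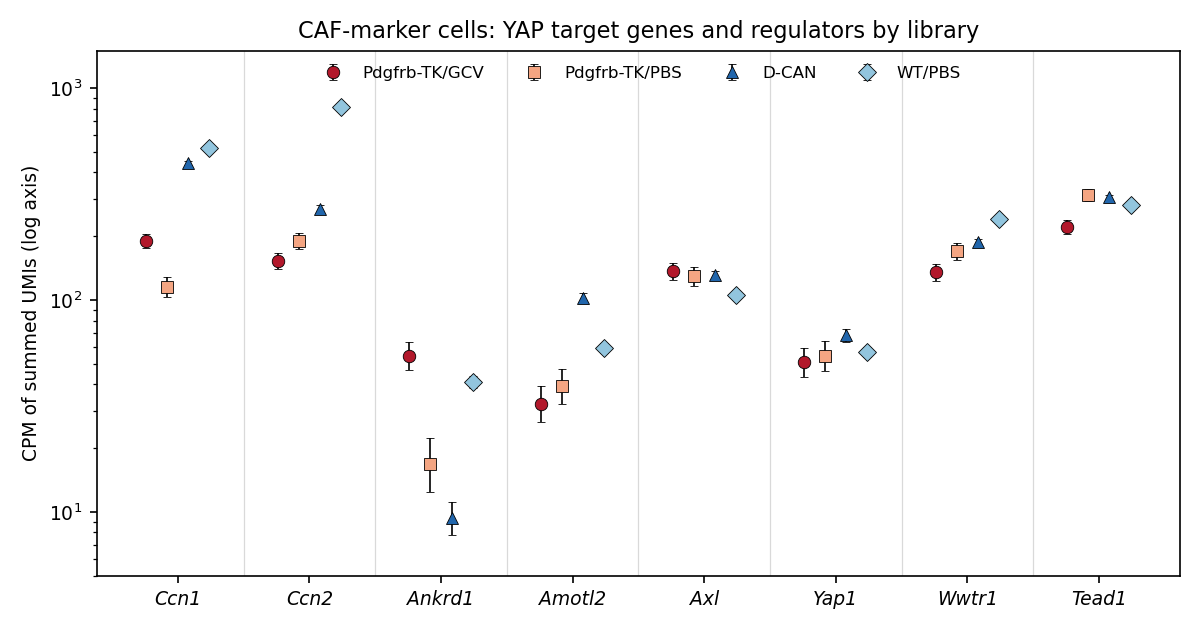
Level of the 8 genes in CAF-marker cells (CPM of summed UMIs, log axis) in each of the 4 libraries, with exact 95% Poisson intervals. WT/PBS is highest for Ccn1 and Ccn2, at 523 and 811 CPM, and D-CAN is lowest for Ankrd1, at 9.35 CPM.

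Ankrd1 was the only member past 2-fold in CAF-marker cells with GCV against its own control, where 2.14% of 7295 genes were higher and 3.22% lower. Against WT/PBS, Ccn1 and Ccn2 were past 2-fold lower with GCV, where 11.2% of all genes were, and no member was past 2-fold against both controls (2.73% of all genes, either direction). With D-CAN, Ccn2 and Ankrd1 were past 2-fold lower than in WT/PBS, where 6.33% of all genes were lower and 12.0% higher. Ccn1 and Amotl2 were past 2-fold higher with D-CAN than in Pdgfrb-TK/PBS, where 6.67% were, and again no member was past 2-fold against both controls (4.29%). Between the controls, Ccn1, Ccn2 and Ankrd1 were past 2-fold lower in Pdgfrb-TK/PBS, where 8.19% of all genes were.

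The 12 immediate early genes summed to 3519 CPM in CAF-marker cells with GCV, 1794 in Pdgfrb-TK/PBS, 4400 with D-CAN and 8680 in WT/PBS. With GCV 6 of the 12 were past 2-fold higher than in the own control, where 2.14% of all genes were. With D-CAN 4 were past 2-fold lower, where 6.33% of all genes were. Between the controls 10 were lower in Pdgfrb-TK/PBS, where 8.19% of all genes were. The part of these 12 genes in the CCN gene levels was not tested.

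Other cell classes carried the genes to different extents. In endothelial cells, Ccn2 lay at 653 CPM (572 to 742) with GCV, from 47 cells, against 148 (119 to 181) in Pdgfrb-TK/PBS, 215 (187 to 246) with D-CAN and 89.6 (80 to 100) in WT/PBS. Both treated libraries were above both controls, and GCV was more than 2-fold above each. The tenth of endothelial cells with the most Ccn2 held 63.7% of its UMIs with GCV, 58.8% with D-CAN and 68.97% in WT/PBS. For thinned cells with a Ccn2 UMI, the exact binomial interval of the share was 20.6 to 51.7% with GCV. It was 10.3 to 26.7% in Pdgfrb-TK/PBS, 20.8 to 40.6% with D-CAN and 12.3 to 20.2% in WT/PBS. The intervals of GCV and D-CAN thus overlapped, and a difference in shares was not tested. The share of all genes past 2-fold was not taken in this class. Ccn1 in endothelial cells lay at 285, 43.3, 315 and 154 CPM in the order of libraries used above, also with both treated libraries above both controls. The tenth of these cells with the most Ccn1 held 55.9% of its UMIs with GCV, 58.2% with D-CAN and 76.1% in WT/PBS. Ccn1 was 2.05-fold higher (1.78 to 2.36) with D-CAN than in WT/PBS here, where it was lower in KPC tumor cells and CAF-marker cells. Wwtr1 in endothelial cells lay between 350 and 601 CPM and Yap1 between 48.1 and 79.7 CPM.

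In macrophages and monocytes Axl, which serves there as a receptor for the uptake of dying cells, lay at 142, 164, 171 and 96.3 CPM in the same order. Ankrd1 in these cells lay at 36.5 CPM in Pdgfrb-TK/GCV against 8.40, 3.25 and 4.17 in the others, and its levels in neutrophils and B cells of Pdgfrb-TK/GCV were 34.6 and 40.5 CPM. In pericytes Ccn2 lay at 568 CPM in Pdgfrb-TK/PBS, 513 with D-CAN and 331 in WT/PBS. The 3 pericytes of Pdgfrb-TK/GCV held 14 UMIs of it. In T cells of Pdgfrb-TK/PBS, 24 in all, Ccn1, Ccn2 and Ankrd1 had 0 UMIs, which allows up to 73.8 CPM at 3 UMIs. In the acinar cells of D-CAN, Ankrd1 lay at 106 CPM (86.4 to 129). In the B cells of D-CAN it lay at 86.3 CPM, from 38 UMIs in 2 of 104 cells.

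**Figure D5:**
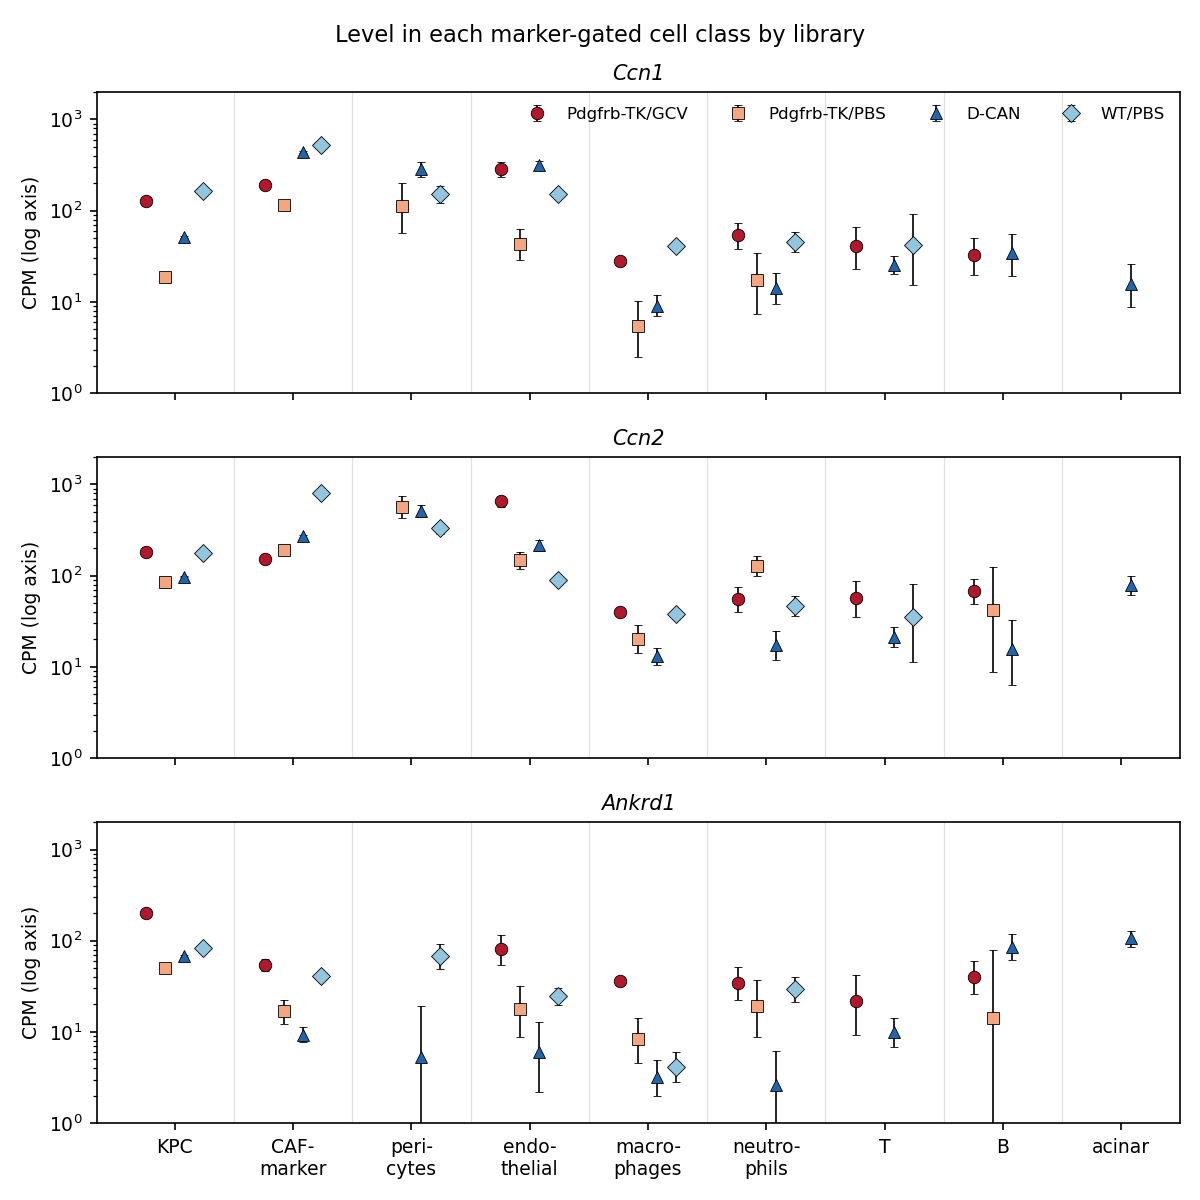
Ccn1, Ccn2 and Ankrd1 (CPM, log axis) in the marker-gated cell classes with at least 20 cells, by library, with exact 95% Poisson intervals; values of 0 are not drawn. Ankrd1 is highest in KPC tumor cells in 3 of the 4 libraries. Ccn2 in endothelial cells of Pdgfrb-TK/GCV reaches 653 CPM, from 47 cells. The tenth of these cells with the most Ccn2 held 63.7% of its UMIs.

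Other genes of the pathway were counted too, and nothing is read from these counts. In KPC tumor cells 1 of 13 upstream kinases and partners was past 2-fold higher with GCV against its own control, where 4.79% of all genes were. This was the FERM domain protein Frmd6, at 78.6, 32.0, 67.1 and 53.3 CPM. With D-CAN none was past 2-fold against WT/PBS, where 8.85% of all genes were higher and 2.68% lower. Frmd6 was past it against Pdgfrb-TK/PBS, where 3.02% of all genes were higher. Between the controls the kinase gene Lats2 was past 2-fold lower in Pdgfrb-TK/PBS, at 18.9 against 39.9 CPM, where 4.48% of all genes were. The scaffold Amotl1 lay at 43.9 CPM with GCV against 16.4, and Tead2, the only past 2-fold of the 4 TEAD partners tested, at 39.7 against 16.5. None of these 3 genes was past 2-fold against both controls. Levels of the pathway genes within clusters of KPC tumor cells were not taken. In CAF-marker cells with D-CAN, the kinase gene Stk3 was past 2-fold higher than in WT/PBS, at 140 against 67.8 CPM, and the adaptor Sav1 lower, at 41.2 against 84.6. Of all genes there, 12.0% were higher and 6.33% lower. Vgll3, a TEAD cofactor, lay at 191 CPM with D-CAN against 52.4 and 66.3 in the 2 controls. It was past 2-fold against both, where 4.29% of all genes were, in either direction. Levels of Stk3, Sav1 and Vgll3 within CAF clusters were not taken.

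Of 21 other genes known as YAP/TEAD targets, 6 were past 2-fold higher in KPC tumor cells with GCV than in its own control. Of all genes, 4.79% were higher and 1.78% lower. None of the 21 was lower, and their median log2 ratio was 0.55, where that of all genes was 0.11. Among the 6 were Tgfb2, Igfbp3, Arhgef17, Thbs1 and Edn1. Against WT/PBS, 3 of the 21 were past 2-fold higher with GCV, where 6.35% of all genes were, and 1 lower (Gadd45b). Their median was then 0.20. Between the controls, 5 were past 2-fold lower in Pdgfrb-TK/PBS, where 4.48% of all genes were, and 1 higher, with a median of -0.39. Thbs1, a matrix glycoprotein that activates TGF-β, lay at 120 CPM with GCV, 27.5 in Pdgfrb-TK/PBS, 32.4 with D-CAN and 45.7 in WT/PBS. Igfbp3, an IGF-binding protein, lay at 259, 84.9, 177 and 112 CPM. With GCV both genes were past 2-fold higher against both controls, where 1.71% of all genes were. With D-CAN, Rbms3 was past 2-fold higher than in both controls, at 89.4 CPM against 42.5 and 18.1, where 1.91% of all genes were past it in either direction. Gadd45b, Edn1 and Areg were lower than in WT/PBS, where 2.68% of all genes were. Levels of these 21 genes within clusters were not taken. In CAF-marker cells, Gadd45b was among the genes past 2-fold higher with GCV, where 2.14% of all genes were. With D-CAN, 5 of 21 were lower there (Fjx1, Tgfb2, Gadd45b, Edn1 and Areg) and Ccdc80 higher, where 6.33% of all genes were lower and 12.0% higher.

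Of the other CCN family members, Ccn5 lay at 89.4 CPM in CAF-marker cells of D-CAN against 20.6 in Pdgfrb-TK/PBS and 16.2 in WT/PBS. It was past 2-fold against both, where 4.29% of all genes were, in either direction. Ccn3 lay at 12.5 CPM in D-CAN against 81.1 in WT/PBS and 15.7 in Pdgfrb-TK/PBS. Levels of these genes within CAF clusters were not taken, and cluster 20 held 42.9% of the CAF-marker cells with D-CAN. In KPC tumor cells Ccn3 and Ccn5 did not exceed 0.744 CPM in any library.

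Across 27 sums of a class and a library with at least 50 cells, Ccn1 was most like Sec22b, Dcbld2, Frmd6, Igfbp7 and Ddah1 among 12663 genes, with Pearson r of log2 CPM between 0.92 and 0.89. Ccn2 was most like Nbl1, Rab18, Dpysl3, Samd4 and Igfbp4, between 0.91 and 0.86. Ankrd1 was most like Phgdh, Scx, Hdgf, Prxl2a and D030056L22Rik, between 0.86 and 0.80. Among the members, r was 0.73 between Ccn1 and Ccn2, 0.88 between Ccn1 and Amotl2, and 0.32 between Ccn1 and Ankrd1. These points share libraries, depth and cell classes, so the values only describe which profiles lie close.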

How the data were processed

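scRNA-seq was analysed in 4 libraries, 1 per condition, grouped by the sample titles. The authors deposited counts, whole UMIs per gene and cell, without normalization; the file headers name cellranger 7.0.0, and the submitters' notes name Cell Ranger, STAR 2.6 and mm10. The protocol text of the labels describes nuclei of another tissue. Doses and the days of treatment are from the study's methods.

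Cells with under 200 genes were left out and doublets were kept. Counts were summed per library and marker-gated class and scaled to CPM; ratios are log2 with 1 CPM added, and a gene was tested with at least 100 UMIs in both libraries together. Being past 2-fold stands in for a call. Ratios within clusters had no minimum of UMIs, so some of them rest on few counts. Clusters used 2000 variable genes without the members, 10 principal components, 20 neighbors and Leiden at a resolution of 0.8 (leidenalg 0.10.2, scikit-learn 1.9.0, Python 3.11.15), which gave 23 clusters. A cluster was named only if at least 50% of its gated cells were of that class, a rule added after the data were seen, as were the values within clusters. Ratios and intervals were run on simulated Poisson counts with known folds, which is what the intervals assume. Spread between cells or mice was not simulated, so this checks the calculation only.

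The members, the lists of pathway genes and the markers were chosen with earlier results of these data known. Named are all 8 members and, of each list, the genes past 2-fold, with values for those past it against both PBS libraries and for the largest, up to 3 in a list. Values of some genes of the lists are not reported here. Likeness used genes with at least 1000 UMIs in all.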

Additional observations from a re-analysis of the deposited data

Results flagged for a closer look

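Ccn1 in KPC tumor cells differed between the models in direction. Its log2 ratio was 2.70 with GCV and -1.66 with D-CAN, each against its own PBS library, a gap of 4.36. Ankrd1 in CAF-marker cells did the same, with a log2 ratio of 1.65 with GCV and -2.03 with D-CAN, a gap of 3.67. In clusters 11 and 13 its log2 ratio was 2.95 and 1.41 with GCV. With D-CAN it was -1.84 and -0.78, so not past 2-fold in cluster 13. Cluster 20 held 42.9% of the CAF-marker cells with D-CAN, at 1.47 CPM, and 0.357% of those in WT/PBS. Its part in the pooled ratio was not tested. The share of CAF-marker cells with an Ankrd1 UMI with GCV, 6.07%, lay within the range of the shares in neutrophils, B cells, T cells and macrophages of that library. It was not tested against them. Both pooled results were singled out because the treated libraries of the 2 models lay past 2-fold on opposite sides of their controls. The difference was not tested, since each condition has 1 library, and the 2 PBS libraries themselves lay 8.84-fold apart for Ccn1 in KPC tumor cells and 2.45-fold apart for Ankrd1 in CAF-marker cells.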

How the results depend on the processing

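The control decided most. With the control taken from the other model, 1 of the 9 ratios past 2-fold stayed so in the same direction (Ankrd1 with GCV in KPC tumor cells) and 13 of 32 ratios had the other sign. Of the 9, the log2 ratio of Ccn1 in KPC tumor cells became -0.38 with GCV and 1.42 with D-CAN, that of Amotl2 with GCV became -0.0566, and that of Ccn2 in CAF-marker cells with D-CAN became 0.50. The members past 2-fold with GCV then numbered 1 in place of 5 in KPC tumor cells and 2 in place of 1 in CAF-marker cells. With the mean over cells, 3 of the 5 in KPC tumor cells remained past 2-fold with GCV. Of the 9 ratios, 8 stayed past 2-fold when centred on the median of all genes, and 8 with 5 CPM added in place of 1. With D-CAN in KPC tumor cells the count of 1 became 2 with ratios centred on the median of all genes. It became 4 at 1.5-fold in either direction, with Ccn1, Ccn2 and Amotl2 lower and Tead1 higher. With GCV in CAF-marker cells the count of 1 became 2 at 1.5-fold, with Ccn1 also higher. The share of all genes past 1.5-fold is not reported here, so nothing is read from the counts at that fold. With GCV in CAF-marker cells the count became 0 without cells with a Wt1 UMI and 0 without cluster 13. Ankrd1 then had under 100 UMIs and was not counted, and its log2 ratio was 2.85 and 1.91. These 2 settings, and that without clusters of a median under 2000 UMIs, were chosen after seeing the data. Over the 13 settings that kept the control, the log2 ratio of Ankrd1 with GCV in KPC tumor cells lay between 1.80 and 1.99 and that of Ccn1 between 2.36 and 2.73. That of Ccn2 lay between 0.95 and 1.12, that of Amotl2 between 0.94 and 1.19 and that of Axl between 0.91 and 1.15. Ccn2, Amotl2 and Axl thus each fell below 2-fold at some setting. In CAF-marker cells that of Ankrd1 lay between 1.0 and 2.85 with GCV and between -3.66 and -1.68 with D-CAN, the lowest without the 5% of cells with most UMIs. No paired analysis was possible because each condition has 1 library. CAF-marker cells were fewest in the Pdgfrb-TK libraries, 267 with GCV and 471 with PBS, where Ankrd1 rests on 179 and 48 UMIs.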
